A study of Mus musculus with 797 samples.

Results

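AiE0387m is the code name of an enhancer carried by 1 of the viral vectors of this study, and the account below describes the glutamatergic nuclei that were sorted after its delivery. The vector was an adeno-associated virus in the PHP.eB capsid, which crosses from blood into brain, and the enhancer drove H2B-SYFP2, a yellow fluorescent protein on a histone that stays in the nucleus. Every nucleus compared came from C57Bl/6J mice given 5e11 vector genomes per mouse, was taken 3 to 4 weeks later from tissue labelled striatum, and was sorted for yellow fluorescence. All groups therefore share virus, reporter, capsid, dose and sort, and differ in the named enhancer or promoter; hSyn1 is a human synapsin promoter used broadly in neurons, and the other code names are not explained in the labels. No untreated mouse, animal identity, sex or age beyond young adulthood is given. Nuclei were chosen by their read depth and by 3 genes: at least 50000 reads and 1000 genes, at least 10 CPM (reads of the gene after scaling the nucleus to a total of 1000000) of Slc17a7, and less than 10 CPM of Gad1 plus Gad2. Slc17a7 encodes the vesicular glutamate transporter of most cortical excitatory neurons, and Gad1 and Gad2 encode the enzymes that make GABA. Library sets A and B are told apart by the start of the library names, and the labels do not say what that start stands for. In set A this kept 18 of 24 AiE0387m nuclei, to be set against 203 nuclei of the 10 other vectors with at least 10 such nuclei. The 10 were AiE0078h (22 nuclei), AiE0140h (22), AiE0391h (11), AiE0401h (21), AiE0410m (15), AiE0445h_3xC2 (31), AiE0447h (27), AiE0743m_3xC2 (14), AiE0779m (30) and hSyn1 (10). In set B it kept 16 of 16 AiE0387m nuclei, against 38 nuclei of 3 other vectors, AiE0390m (11), AiE0391h (12) and AiE0401h (15). These are 275 nuclei, 34 of them with AiE0387m, of 797 labelled nuclei in all.

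Enhancers are stretches of regulatory DNA that raise transcription of a gene in the cell types that hold the right factors, and an enhancer virus uses them to label chosen cell types. Excitatory neurons of the cortex differ by layer: Cux2 is a transcription factor of upper layers, Rorb of layer 4 and part of layer 5, Fezf2 of deep-layer neurons projecting below the cortex, and Foxp2 and Tle4 of layer 6 neurons projecting to the thalamus. Neurons of the striatum itself are mostly GABAergic spiny projection neurons, which do not use Slc17a7.

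Of the 6 AiE0387m nuclei of set A that were left out, 2 had too few reads, 2 had no Slc17a7 read, and 2 had Slc17a7 together with Gad1 or Gad2. No AiE0387m nucleus lay close to the Slc17a7 limit: in set A the kept nuclei had 249.7, 850.2 and 2476 CPM (lowest, median and highest), in set B 163, 532 and 2172 CPM, and both nuclei outside it in set A had 0. The median depth was 325296 reads with AiE0387m and 226512 to 345616 with the other vectors of set A, and 229407 against 201928 to 232220 in set B. Genes read per nucleus went opposite ways in the sets. Their median was 2835.5 with AiE0387m in set A, above 9 of the 10 other vectors (2354 to 2950), and 2434 in set B, below all 3 others (2666.5 to 3021). After each nucleus was thinned to 50000 reads the same order held, with 2528.5 against 2105 to 2571.5 genes in set A and 2184.5 against 2346.5 to 2731 in set B. Because the labels name no animal, each vector counts as 1 sample in each set, and differences are described by their size and by the range over the other vectors, with no test. Levels are means of log2(CPM + 1) over nuclei, and intervals cover counting error only.

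Spiny neuron markers were looked up in nuclei that had already been chosen for Slc17a7 and against Gad1 and Gad2. That choice leaves out GABAergic neurons, so the values below do not test the striatal label. Drd2 and Adora2a, receptors that define a class of spiny projection neuron, had no read in any of the 34 AiE0387m nuclei, and of the 13 spiny neuron genes listed 6 were unread in set A and 10 in set B. The mean of that list was 0.75 with AiE0387m and 0.59 to 0.94 with the other vectors of set A, and 0.89 against 0.69 to 0.79 in set B. The higher value of set B held Pde10a, a phosphodiesterase strong in spiny neurons and also read in cortical neurons, at 9.69 ± 1.28 with AiE0387m (SD over 16 nuclei) and 6.43 to 7.42 over the 3 other vectors. In set A its level with AiE0387m was 6.07, within the 4.43 to 7.22 of the others. Excitatory genes other than Slc17a7 were read throughout: Camk2a, a synaptic kinase subunit, was read in 13 of 18 and 12 of 16 nuclei.

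Layer genes were found in different shares of the AiE0387m nuclei in the 2 sets, within wide counting intervals. Rorb reached 10 CPM in 4 of 18 nuclei of set A (22.2%, exact Clopper-Pearson 95% interval 6.41% to 47.6%), where the other vectors ran from 7.14% to 29.6%. In set B it did so in 9 of 16 nuclei (56.2%, 29.9% to 80.2%), above the 9.09% to 16.7% of all 3 other vectors. The deep-layer genes lay the other way. Foxp2 reached 10 CPM in 4 of 18 AiE0387m nuclei of set A, at 22.2% the highest of the 11 vectors, the others running from 0% to 20%. None of the 16 AiE0387m nuclei of set B had a Foxp2 read, which allows a share of up to 18.8%, while the others had 9.09% to 25%. Tle4 reached 10 CPM in 6 of 18 AiE0387m nuclei of set A (33.3%, others 7.41% to 36.4%) and in 1 of 16 of set B (6.25%, others 33.3% to 45.5%). Intervals of the shares in sets A and B overlap for each of the 3 genes.

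Cux2 was nearly unread in set A. It reached 10 CPM in 1 of 18 AiE0387m nuclei (5.56%, 0.141% to 27.3%), at 12.7 CPM, below each of the other vectors, which had 14.3% to 35.7%. In set B it reached this level in 4 of 16 nuclei (25%), and the others had 13.3% to 25%. Of the other genes listed for upper layers, Enpp2 and Lamp5 did not share the low value of set A. Enpp2, the enzyme autotaxin, reached 10 CPM in 12 of 18 AiE0387m nuclei of set A (66.7%), equal to the highest of the others (28.6% to 66.7%), and in 6 of 16 of set B (37.5%), just below the others (40% to 45.5%). Its reads in set A were not confined to nuclei without deep-layer genes. Of the nuclei with Foxp2 and Tle4, nuclei 28, 31 and 38 had Enpp2 at 615, 1569 and 788 CPM, and nucleus 30 had none. Lamp5, a membrane protein of upper-layer neurons, stood within the range of the others in both sets, at 44.4% and 31.2%. Thinning to 50000 reads left 0 of 18 nuclei with Cux2 in set A, and left Rorb in 9 of 16 and Foxp2 in 0 of 16 nuclei of set B. Nr4a2, a transcription factor of claustrum and of activated neurons, was below 10 CPM in all 18 AiE0387m nuclei of set A, where every other vector had some nuclei over it (6.67% to 36.4%), and 1 of the 18 kept a Nr4a2 read after thinning.

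Lists for excitatory neurons of the claustrum and hippocampus were also read. The claustrum list, with 5 genes, was below each of the other vectors in both sets, at 0.17 with AiE0387m against 0.39 to 1.02 in set A and 0.43 against 0.63 to 0.72 in set B. Of its genes only Gng2, a G protein subunit, passed the filter on low values, with differences of −0.77 in set A and −1.13 in set B, that of set B past the limit. The hippocampus list was at 0.48 against 0.09 to 0.29 in set A, and at 0.26 against 0.10 to 0.52 in set B, with no read of Prox1, the factor that marks dentate granule cells. The list of layer 6b had no read in any AiE0387m nucleus of either set.

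**Figure D1:**
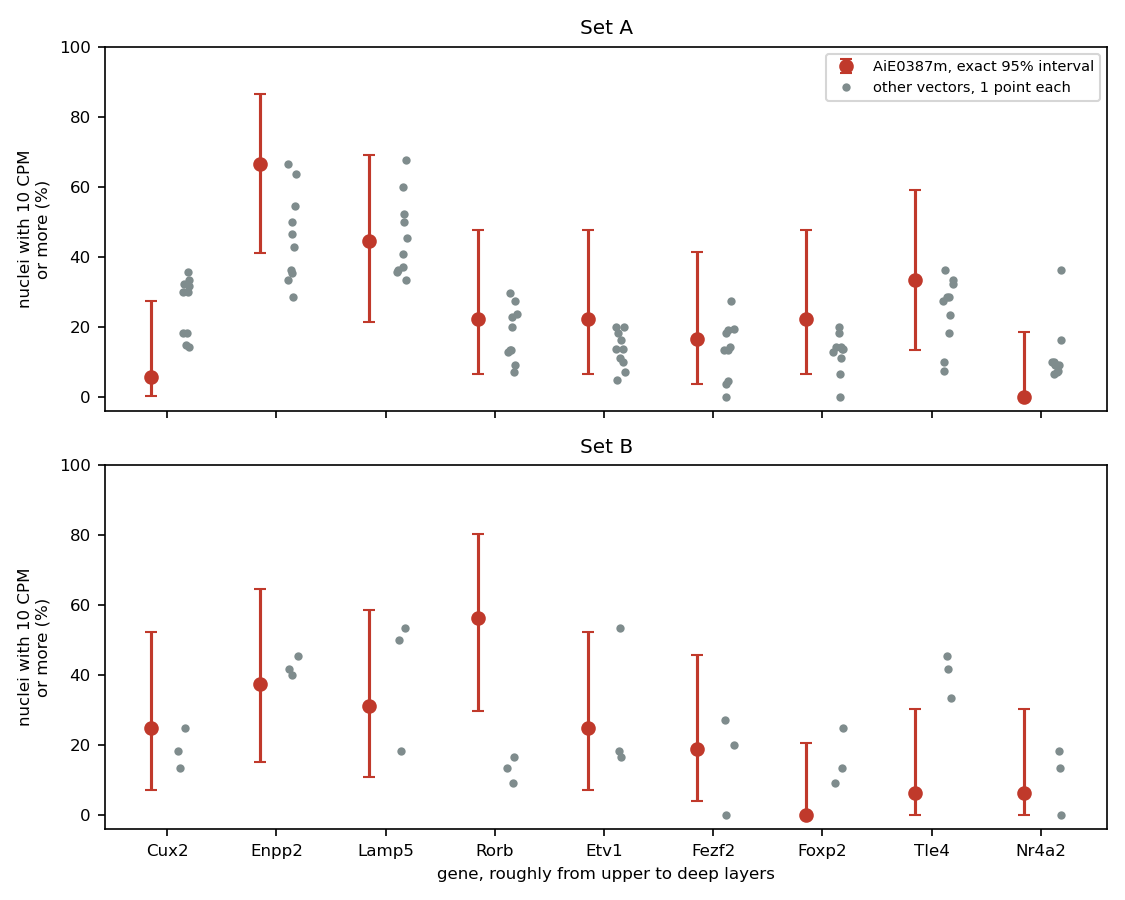
Share of nuclei (percent, vertical axis) with 10 CPM or more of each layer gene, with AiE0387m in red (error bar: exact 95% interval) left of the other vectors in grey, 1 point per vector, in set A (18 AiE0387m nuclei) and set B (16). Rorb stands above the other vectors in set B and among them in set A, and Foxp2 is the highest in set A and 0 in set B.

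Within the 18 AiE0387m nuclei of set A several layer patterns occurred side by side. The 4 nuclei with Foxp2 all carried Tle4 as well, and 2 of these 4, nuclei 30 and 38, also carried Fezf2 and Bcl11b, a transcription factor of subcortical projection neurons. Rorb was read in 4 different nuclei, at 64.1, 71.1, 87.8 and 813 CPM, none of which had a Foxp2 or Tle4 read. Fezf2 was read in 3 nuclei at 468, 846 and 1063 CPM. In set B, the 9 nuclei with Rorb ran from 40.2 CPM to 1185 CPM, and 1 of them, nucleus 13, had Tle4 at 5.74 CPM. The highest Tle4 level of set B, 653 CPM in nucleus 11, came with Tshz2 and without Rorb. Every AiE0387m nucleus in both sets had at least 1 of the 20 layer genes shown at 10 CPM or more.

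**Figure D2:**
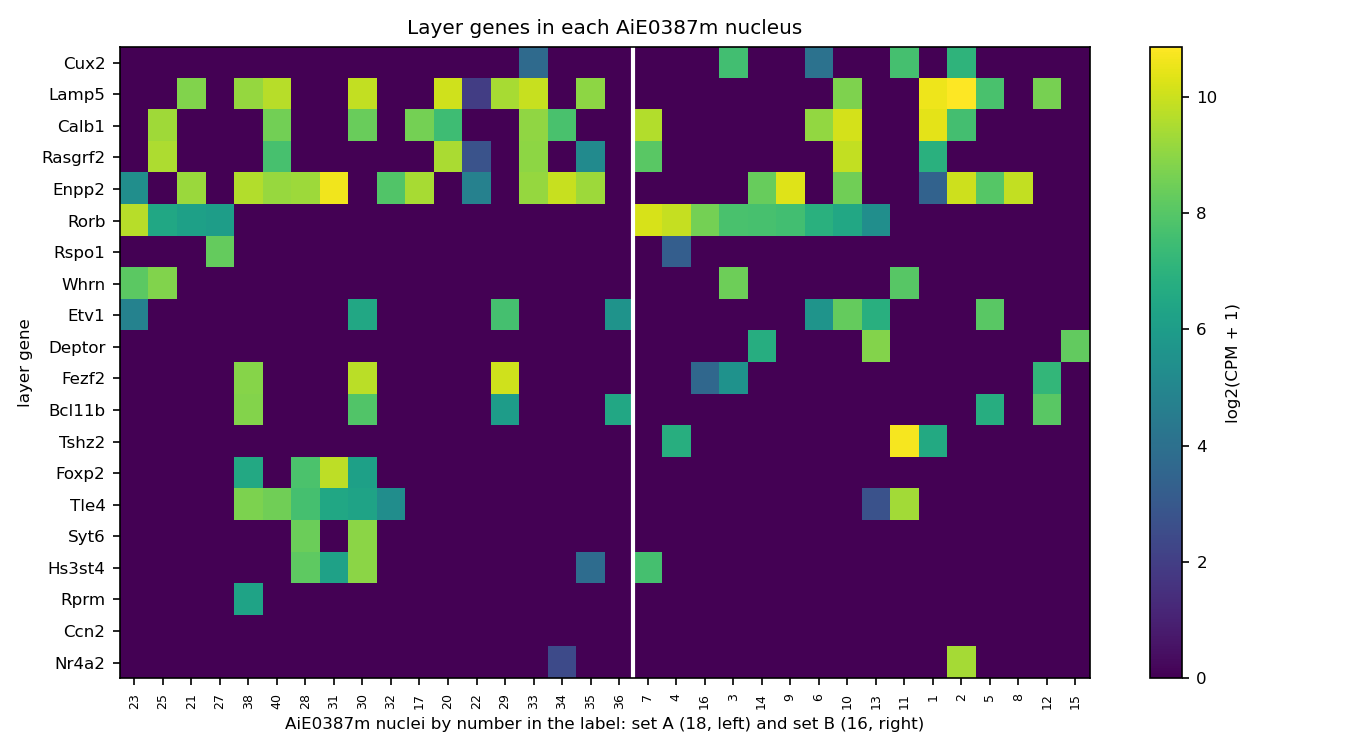
Level of 20 layer genes (rows, roughly from upper to deep layers) in each AiE0387m nucleus (columns, by the number in its label, ordered by Rorb and then Tle4), in log2(CPM + 1), with set A left and set B right of the white line. The Foxp2 and Tle4 block is seen in set A, and Rorb spans 9 of the 16 columns of set B.

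Across the transcriptome, 4794 genes were read in at least 20% of nuclei on the equal-weight mean over the vectors of set A. A gene was called higher when its mean with AiE0387m was at least 1 log2 unit above the mean of the other vectors and above each of them, and lower likewise in the other direction. In set A, 475 genes were called higher (9.91% of the genes compared) and 255 lower (5.32%), while the median difference of all genes was 0.14. Higher genes were 65.1% of those called, against 43.6% to 46.5% when reads were summed per vector under 3 scalings, and 52.4% when differences were centred on the median of all genes, an alternative chosen after the data had been seen. Kcnt2, which encodes a sodium-activated potassium channel (chr1:140246158-140612067, plus strand, mm10), was read in 16 of 18 nuclei with AiE0387m and in 30% to 59.1% of nuclei of the other vectors. Its lowest, median and highest values over the AiE0387m nuclei were 0, 97.9 and 679 CPM. Its mean level was 6.49 ± 2.88 with AiE0387m (SD over 18 nuclei) and 2.01 to 3.98 over the 10 other vectors, a difference of 3.48.

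Cntn1, the axonal adhesion protein contactin 1, was at 6.21 ± 3.96 with AiE0387m (SD over 18 nuclei) and 0.90 to 4.59 over the 10 other vectors, a difference of 3.15. It was read in 14 of 18 AiE0387m nuclei, with a median of 244 CPM. In set B it was read in 7 of 16 nuclei and differed by −0.88. Glrb, the beta subunit of the glycine receptor, and Gphn, the scaffold gephyrin that anchors glycine and GABA receptors at inhibitory synapses, were both among the 12 largest. Glrb was read in 17 of 18 nuclei and differed by 2.83, and Gphn was read in all 18 and differed by 2.69. In set B Glrb differed by −0.51 and Gphn by 0.18. Atp2a2, the calcium pump of the endoplasmic reticulum, differed by 2.71, and Mdh2, mitochondrial malate dehydrogenase, by 2.77. The other 6 were Mphosph8 (3.14), a reader of a repressive histone mark, the zinc-finger genes Zfand2b (3.11) and Zfp326 (3.03), the palmitoyltransferase gene Zdhhc6 (2.92), the ribosomal protein gene Rpl3 (2.82) and the ubiquitin ligase adaptor gene Fbxo44 (2.71). Rpl3 has small RNA genes inside it, overlaps the protein-coding gene Syngr1 and has processed copies elsewhere, and its reads are uncertain for that reason.

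The largest lower value was Napa, which encodes alpha-SNAP, the factor that takes spent vesicle fusion complexes apart (chr7:16098458-16117975, plus strand, mm10). It was read in 6 of 18 nuclei with AiE0387m and in 50% to 81.8% of nuclei of the other vectors, so its median with AiE0387m was 0 CPM and its highest value 917 CPM. Its mean was 2.61 ± 4.12 with AiE0387m (SD over 18 nuclei) and 4.05 to 7.30 over the 10 other vectors, a difference of −3.17. In set B Napa was read in 11 of 16 AiE0387m nuclei and differed by 0.59. Psd3, an Arf exchange factor of the postsynaptic density, differed by −2.34, and Tnik, a kinase of the same structure, by −2.14. Rtn3, a shaping protein of the endoplasmic reticulum, was read in 10 of 18 nuclei and differed by −2.66. Ndufa11, a subunit of respiratory complex I, was read in 1 of 18 nuclei and in 28.6% to 51.6% of those of the other vectors, a difference of −2.57. The remaining 7 were Dusp14 (−2.85), a protein phosphatase gene, Oaz1 (−2.43), an inhibitor of polyamine synthesis, Tspan13 (−2.40), Snrpn (−2.35), Nup88 (−2.33), a nuclear pore gene, Ppp2r1a (−2.31), a phosphatase scaffold gene, and the adhesion receptor gene Adgra1 (−2.11). Like Napa, Dusp14 (0.64) and Snrpn (1.17) were above 0 in set B, and the others of these 12 were below 0 there. Snrpn overlaps Snurf, and their reads cannot be told apart here. Zdhhc6, Ndufa11, Nup88 and, among the genes named further on, Dusp1, Flrt3, Gabrb1, Adora1, Kcnh7 and Lztfl1 also overlap another protein-coding gene in the annotation, and the strand setting of the counts is not known.

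The higher and lower genes of set A did not recur in set B above the rate of all genes. Of the 475 higher genes, 32% had a difference above 0 in set B, against 34.5% of all 4794 genes. Of the 255 lower genes, 63.9% had one below 0, against 65.5% of all. With no filter on low values this share was 62.9% against 51.5% of 17847 genes, and in nuclei with Foxp2 and Tle4 under 10 CPM, compared with the 12 vectors of set A that had 5 or more such nuclei, it was 70.8% against 64.5%. The median difference in set B was −0.44 for the higher genes, −0.41 for the lower genes and −0.39 for all. With reads summed per vector the median of all genes in set B was 0.08 to 0.11. By the same limit in set B, 7.59% of all genes were called higher and 24% lower, and of the 475 higher genes 35 (7.37%) were called higher again while 110 (23.2%) were called lower. Of the 255 lower genes, 63 (24.7%) were lower again and 19 (7.45%) were higher. Across the 4794 genes the differences of the 2 sets had a Spearman rho of −0.0251, given as a description since genes of 1 sample are not replicates. AiE0391h and AiE0401h, the 2 other vectors with at least 10 nuclei in both sets, had rho of 0.0167 and −0.00198 when treated in the same way. The sets were compared with different vectors, 10 in set A and 3 in set B, and the number of genes read per nucleus moved in the same directions as the median differences; its part in the result was not tested.

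**Figure D3:**
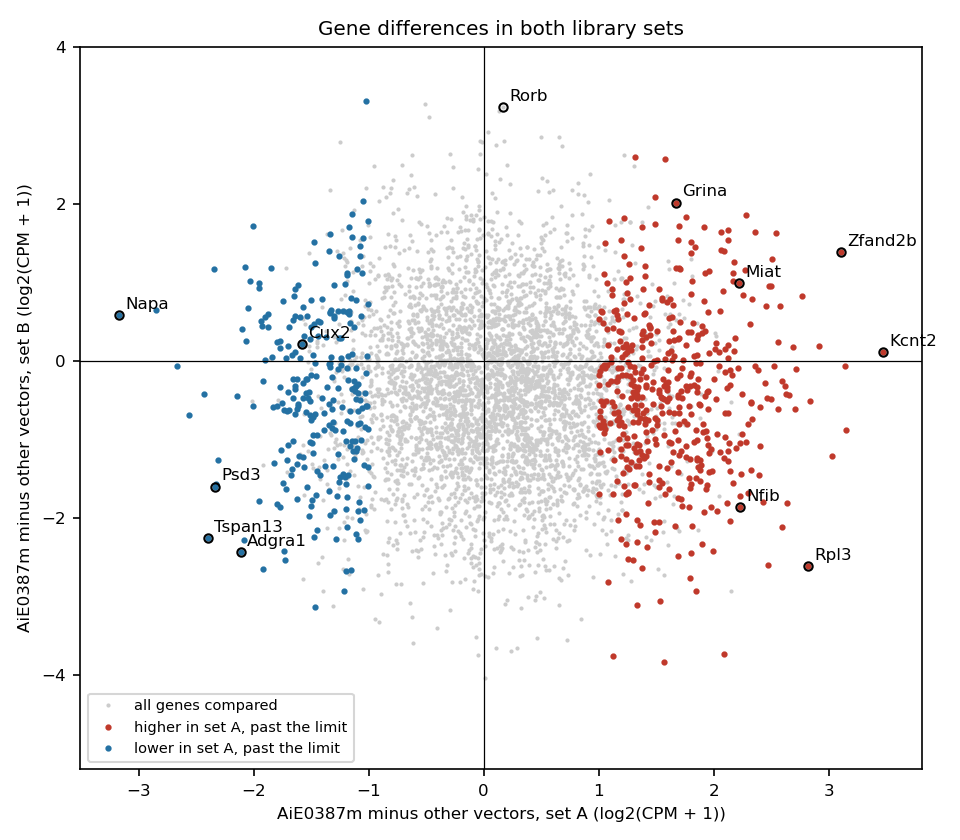
Difference of each of 4794 genes, AiE0387m minus the mean of the other vectors in log2(CPM + 1), in set A (horizontal) and set B (vertical). Red points are the 475 genes called higher and blue points the 255 called lower in set A, and both colours spread above and below 0 in set B in the proportion of the grey points.

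Miat, a long noncoding RNA kept in the nucleus of neurons (chr5:112213228-112229395, minus strand, mm10), was singled out with earlier results of these data known, so its values are a description. It was read in all 18 AiE0387m nuclei of set A, at 58.4, 654 and 1984 CPM (lowest, median and highest), and in all 16 of set B, at 142, 573 and 1539 CPM. In set A the mean level was 9.10 ± 1.25 with AiE0387m (SD over 18 nuclei) and 5.54 to 8.31 over the 10 other vectors, a difference of 2.22. AiE0410m was the nearest of these at 8.31 ± 1.74 (SD over 15 nuclei), also with reads in every nucleus, and AiE0391h the lowest, with reads in 7 of 11. In set B the mean level was 9.18 ± 1.07 with AiE0387m (SD over 16 nuclei) and 7.52 to 8.92 over the 3 other vectors. The AiE0387m level in set B was again above all of the others, of which AiE0401h was the nearest at 8.92, and its difference from their mean, 0.99, fell just short of the limit. The AiE0387m level was nearly the same in the 2 sets, while AiE0391h and AiE0401h had higher levels in set B (8.12 and 8.92) than in set A (5.54 and 6.43). The SD over AiE0387m nuclei was the smallest among the vectors in each set, with no nucleus without Miat reads. Reads in every nucleus were not particular to AiE0387m in set B. There Miat was read in 12 of 12 AiE0391h, 15 of 15 AiE0401h and 10 of 11 AiE0390m nuclei.

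When reads were summed per vector, Miat made up 723 CPM with AiE0387m (exact Poisson 95% interval 701 to 745), against 318 to 788 CPM with the other vectors of set A. AiE0743m_3xC2 was then the highest of set A, with 4 of its 14 nuclei without reads and others at high counts. In set B the summed level was 726 CPM with AiE0387m (exact Poisson 95% interval 699 to 754), against 491 to 724 CPM, the highest of the others being AiE0401h. Of the other nuclear RNAs, Malat1 differed by 0.02 in set A and 0.27 in set B and Meg3 by 0.17 and 0.54. Of the 4794 genes, 58 had a difference at least as large as that of Miat in set A, 452 in set B and 8 in both, Miat itself counted.

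**Figure D4:**
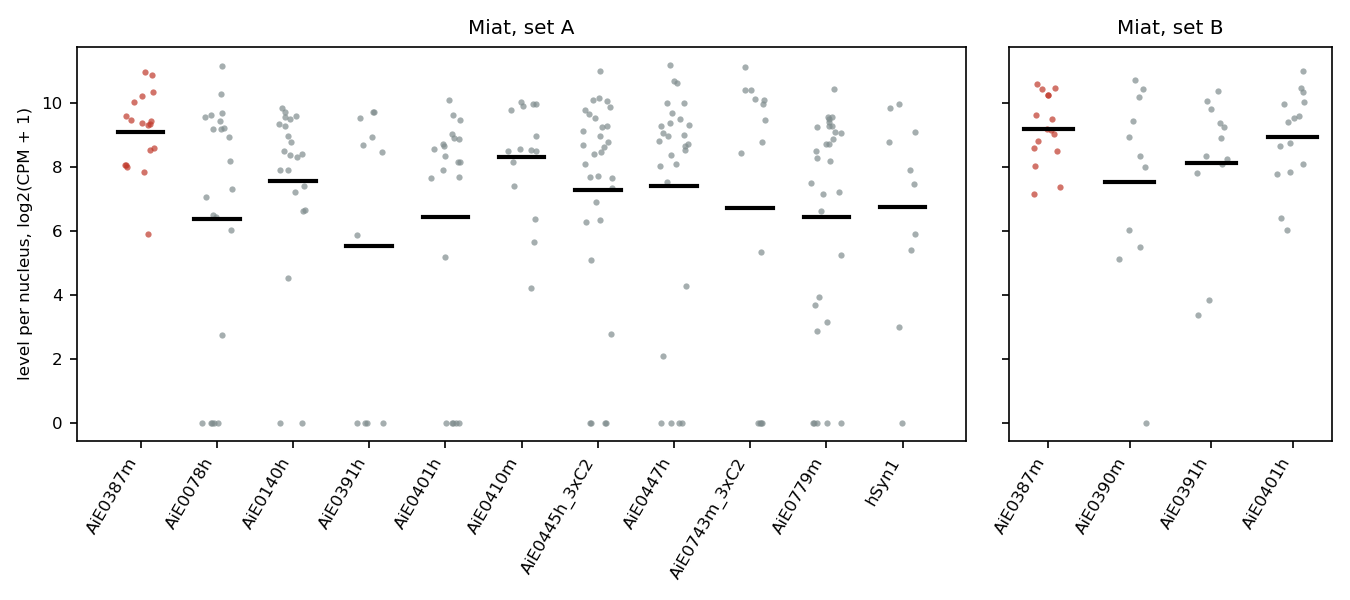
Miat level of each nucleus (points, log2(CPM + 1)) by vector, AiE0387m in red at the left and the other vectors in grey, in set A and set B, with the mean as a black line. All AiE0387m points lie above 0, at means of 9.10 and 9.18, while 9 of the 10 other vectors of set A have nuclei at 0. In set B all points of AiE0391h and AiE0401h also lie above 0.

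The genes called in both sets were 7.37% of the higher and 24.7% of the lower genes of set A, close to the rates of all genes given above, and they are listed as values only. Among the 35 higher in both, the 10 with the largest smaller difference included Grina, an inhibitor of cell death of the endoplasmic reticulum and Golgi. Grina was read in 16 of 18 and 16 of 16 AiE0387m nuclei and differed by 1.67 in set A and 2.02 in set B. Cbfa2t2, a transcriptional corepressor, differed by 2.29 and 1.86, and Hsf1, the heat shock transcription factor, by 1.70 and 1.72. Gm3764, a noncoding RNA gene that spans Mir9-1, differed by 1.57 and 2.57. The other 6 were Neu1, Sytl2, Vbp1, Gpbp1, Ammecr1l and Flrt3, with differences of 1.69 to 2.54 in set A and 1.54 to 1.71 in set B. Zfand2b, among the 12 largest of set A, was also called higher in set B (1.39), outside these 10.

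Among the 63 genes lower in both sets, Adgra1, Tspan13, Psd3 and Nup88 were also among the 12 largest of set A. In set B Adgra1 differed by −2.43, Tspan13 by −2.26, Psd3 by −1.60 and Nup88 by −1.56. Unc13b, a priming factor of synaptic vesicles, was read in 5 of 18 and 4 of 16 AiE0387m nuclei and differed by −1.92 and −2.65. Tmem199, a gene of the Golgi and endosomes, had no read in any of the 34 AiE0387m nuclei, while 9.68% to 36.7% of nuclei of the other vectors had reads in set A and 26.7% to 33.3% in set B. A count of 0 allows a share of up to 16.7% of the AiE0387m nuclei in set A and 18.8% in set B. The shares of the other vectors in set B rest on 11 to 15 nuclei each and are uncertain too. Tmem199 was also picked for its low values in these data, and the difference in shares was not tested. Nup88 was not among the 10 with the largest smaller difference, of which the other 5 were Esco1, Dlgap2, Rbm6, Sft2d1 and Lztfl1. These 5 had differences of −2.08 to −1.73 in set A and −2.54 to −1.79 in set B. Dlgap2, a scaffold of the postsynaptic density, was at 14.1 CPM in summed reads with AiE0387m in set A, against 22.8 to 169 CPM with the others.

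Gene lists were read against the same rates, 9.91% higher and 5.32% lower, and against the median of 0.14 for all genes, in set A. In set B the rates were 7.59% higher and 24% lower and the median −0.39. Potassium channels, which set how fast a neuron's membrane returns to rest, had 7 of the 18 members compared called higher and 3 lower in set A, with a median of 0.38. The higher members included Kcnt2, its paralog Kcnt1 (1.78), the inward rectifier Kcnj9 (1.88), Kcnma1 (1.66), a channel opened by calcium and voltage, Kcnc1 (1.55) and Kcna2 (1.40). The lower members included Kcnip3 (−1.45) and Kcnh7 (−1.24). In set B 4 members were higher and 6 lower, and the median was 0.15. Kcna2 was higher in both sets (1.20 in set B), and Kcnip3 was lower in both (−1.40 in set B). Kcnj9 (−1.53) and Kcnc1 (−1.56) were lower in set B, and Kcnt2 differed by 0.11 there.

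Sodium, calcium and HCN channels had 1 of 12 members called higher and none lower in set A (median 0.42), namely Cacna1a (1.45), the pore of the presynaptic P/Q calcium channel. The mean over all 20 matched members was 2.95 with AiE0387m, above each of the 10 other vectors (2.20 to 2.75). In set B it was 2.86, below each of the 3 others (3.04 to 3.36), with 2 members higher, among them Scn1a (1.17), and 5 lower, where 24% of all genes were lower. The AiE0387m values of the 2 sets were close to each other, and those of the other vectors were higher in set B. Neurexins and their partners, the adhesion proteins that span the synapse, showed the same order: 2.86 with AiE0387m against 2.23 to 2.74 in set A, and 2.75 against 2.80 to 3.27 in set B. Cntn1 was the only member of that list past the limit in set A, and 4 of 14 were lower in set B, near the 24% of all genes.

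Few receptor genes passed the limit in set A. Glutamate receptors had 1 higher and 0 lower of 12 compared, with a median difference of 0.32 in set A. The member was Gria3, an AMPA receptor subunit (1.69). In set B none was higher and 3 were lower. GABA-A receptors, the chloride channels of fast inhibition, had 1 lower of 8 in set A, Gabrb1 (−1.24), and a median of −0.53. In set B none was lower and 3 were higher, among them the subunits Gabra4 (1.71) and Gabrd (1.10), with a median of 0.50. In set A Gabra4 differed by −0.21 and Gabrd by −0.86. Of 7 neuromodulator receptors compared, Adora1, the inhibitory adenosine receptor, was lower in set A (−1.72), with reads in 1 of 18 AiE0387m nuclei. It differed by −1.63 in set B, where the lowest of the other vectors lay lower still, so that it was not called there.

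Of 19 vesicle and release genes, the active-zone gene Rims1 (1.34) was higher and Unc13b lower in set A, and in set B 1 was higher and 7 lower (median −1.08, against 24% lower and a median of −0.39 for all genes). Calcium/calmodulin kinases had 2 of 9 higher in set A, Camk2b (2.33), a subunit of the main synaptic kinase, and Camkk1, a kinase that activates other members of the family (1.40). Camk2b differed by −0.74 and Camkk1 by −0.74 in set B. Cadherins and protocadherins, adhesion proteins of cell contacts, had 2 of 11 higher, Pcdh9 (2.46) and Cdh2 (1.36), and 2 lower, Cdh6 (−1.95) and Pcdh7 (−1.49). Pcdh9 was read in all 18 AiE0387m nuclei of set A, at 104, 718 and 1834 CPM, and differed by −0.47 in set B. Of 15 axon guidance genes, the secreted cue Sema3a (1.52) was higher and the receptor Epha4 (−1.21) lower in set A, and their differences in set B were −1.52 and 0.99.

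**Figure D5:**
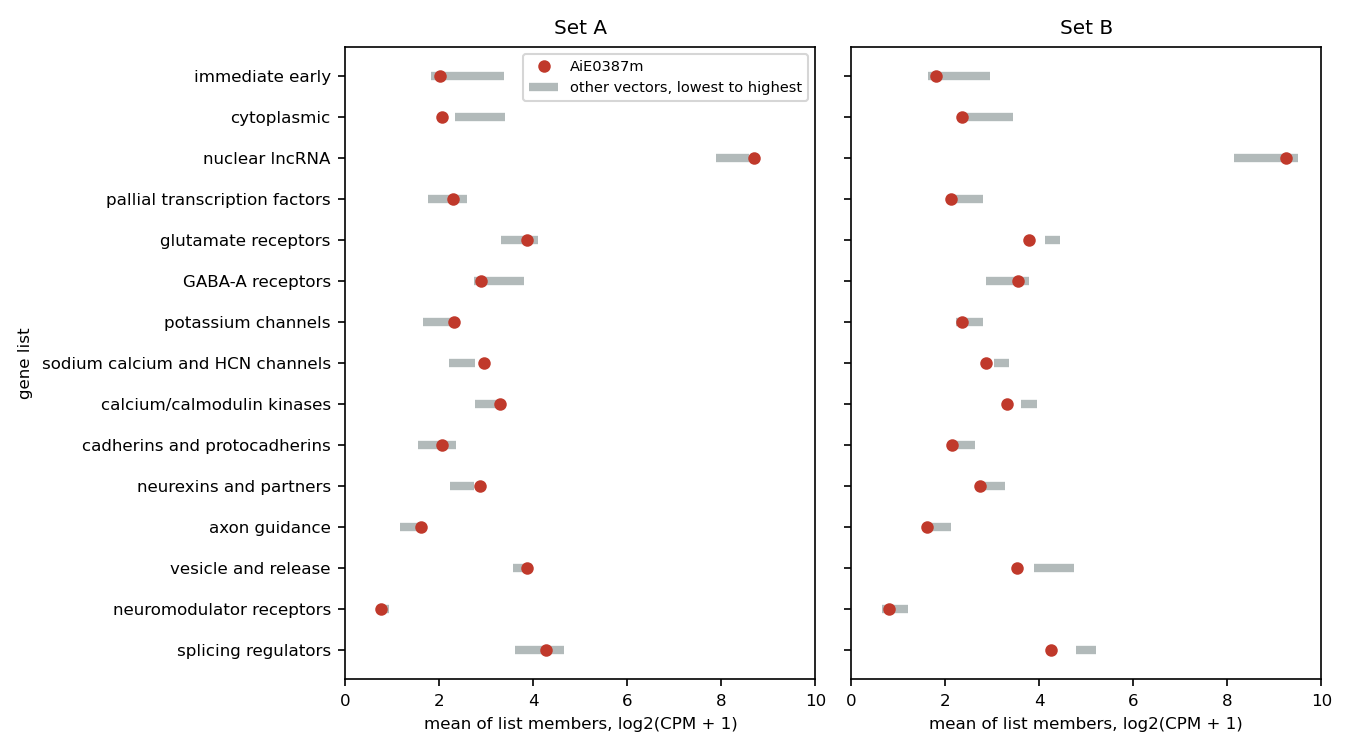
Mean level of the members of 15 gene lists (log2(CPM + 1), horizontal), with AiE0387m as a red point and the lowest to highest of the other vectors as a grey bar, in set A (10 other vectors) and set B (3). The AiE0387m points are similar in the 2 panels, and the grey bars of the splicing, vesicle, kinase and channel lists lie further right in set B.

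Transcription factors of the pallium, the part of the forebrain that forms the cortex, had 2 of 26 members higher and 1 lower in set A. Nfib, a factor of cortical maturation, differed by 2.23 in set A and by −1.87 in set B, past the limit in both. Cux2, the lower member, differed by −1.58 and 0.22. In set B 3 members were higher, among them Rorb by 3.24, and 7 lower, among them Tle4 by −2.33. Splicing regulators had 2 of 19 higher in set A, Khdrbs2 (2.25) and Khdrbs3 (1.30), and 3 lower, Nova1 (−1.44), Celf4 (−1.10) and Elavl2 (−1.06). Celf4 was also lower in set B (−2.27), while Elavl2 was higher (1.12).

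Immediate early genes, which neurons switch on within minutes of activity, had list medians below the median of all genes in both sets. The list mean with AiE0387m still lay within the range of the other vectors. It was 2.01 against 1.81 to 3.37 in set A, and 1.81 against 1.64 to 2.95 in set B. Of 10 compared, Dusp1 (−1.62), a phosphatase of stress kinases, was lower in set A and none was higher, with a list median of −0.71 against 0.14 for all genes. In set B 1 was higher, Nr4a1 (1.21), and 2 were lower, with a median of −0.61 against −0.39. Cytoplasmic RNAs, a sign of cytoplasm carried along with the nucleus, had a list mean of 2.06 with AiE0387m, below each of the other vectors of set A (2.33 to 3.39), and 1 of 4 members called lower, Rps3 (−1.53). In set B the list mean was 2.35 against 2.32 to 3.44. Mitochondrial reads were rare, with a median of 0.0108% of reads with AiE0387m in set A, above all 10 others (0% to 0.00654%), and of 0% in set B, below all 3 others (0.00841% to 0.0156%). In set B 3 of the 11 AiE0390m nuclei were over 1%, the highest at 2.34%. The part of this in the differences was not tested. Of the p53 response genes, which follow DNA damage, none of 4 compared was called in set A, and no interferon response gene passed the filter.

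Markers of other cell types were mostly unread in these nuclei. Low values of the GABAergic list follow in part from the choice of nuclei by Slc17a7, Gad1 and Gad2. The GABAergic list had a mean of 0.15 with AiE0387m and 0.10 to 0.28 with the others in set A, and 11 of its 14 genes, Slc32a1 among them, had no read in the 18 AiE0387m nuclei. All 3 oligodendrocyte precursor genes and all 6 microglial genes had no read in these 18 nuclei. The astrocyte list was at 0.15 against 0.03 to 0.33 in set A and had no read at all in the 16 AiE0387m nuclei of set B. The oligodendrocyte list was at 0.51 against 0.38 to 0.98 in set A and 0.45 against 0.27 to 0.65 in set B. Its only member compared, the myelin gene Mbp, differed by −0.92 in set A and was called higher in set B (1.08), with reads in 3 of 16 AiE0387m nuclei and in 0% to 16.7% of those of the others. The endothelial list, with 2 of 4 genes unread, was at 0.20 against 0.00 to 0.25 in set A.

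Sex-linked genes differed among the vectors of set A. Xist, which silences an X chromosome in females, reached 10 CPM in 1 of 18 AiE0387m nuclei, at 10.1 CPM, and in 0% to 46.7% of the nuclei of the other vectors. At least 1 read of the Y-linked genes Eif2s3y, Ddx3y, Kdm5d or Uty was found in 18 of 18 AiE0387m nuclei and in 40.9% to 100% of the nuclei of the others. Eif2s3y was called higher in set A (2.62) and Uty as well (1.96). In set B no nucleus compared had an Xist read, Eif2s3y differed by −0.32, and Uty was again higher, by 1.15. The labels give no sex, so the vector and the animals behind it cannot be told apart. Without nuclei that had 10 CPM of Xist or more, 497 genes were called higher and 260 lower in set A, and Miat differed by 2.40. This also took AiE0410m, left with under 10 nuclei, out of the comparison, and leaving out AiE0410m alone gave 516 higher and 268 lower genes and a Miat difference of 2.38.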

How the data were processed

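Single nuclei were profiled with SMART-Seq v4 and Nextera XT, per the labels' protocols. The authors deposited unnormalized counts of reads for each gene in each nucleus; no molecular identifiers were used, so PCR copies are counted too. Per the submitters' processing notes, the authors used STAR 2.7.2a and the build mm10; the counter, its annotation, its strand setting and its treatment of introns were not given in the sources used here. Of 2501 columns, 797 matched a labelled nucleus by library name and 1704 were not used. No 2 compared nuclei had identical counts. Depth per nucleus, after the limits, was 102501 to 502340 reads in set A and 144510 to 348585 in set B.

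Ensembl identifiers gave symbols to 32158 of the 32285 rows of genes; the rest held 0.0931% of reads. Positions are those of GENCODE M21. Counts were scaled to CPM by the nucleus total, 1 was added and log2 taken. The AiE0387m mean over nuclei was set against the mean of the other vectors' means. A gene past the limit differed by 1 or more and lay outside the range of all other vectors. Genes had to be read in 20% of nuclei, and Slc17a7, Gad1, Gad2 and mitochondrial genes were left out of the calls. AiE0387m counted in that share, so a gene near 20% could pass through its high share with AiE0387m. The text names the 12 largest differences in each direction, up to 10 in each direction past the limit in both sets, ranked by the smaller of the 2 differences, and members of 36 gene lists. The nuclei, the lists and Miat were chosen with earlier results of these data known. The 20 layer genes and the level of 10 CPM used for shares were settled with the values in view.

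The labels name no animal, so no test was made between vectors. Shares carry exact Clopper-Pearson 95% intervals, summed reads exact Poisson 95% intervals, and a share of 0 the limit of 3 nuclei of the total; these cover counting error only, and PCR copies make the Poisson intervals too narrow. The alternatives changed the pseudocount, gene filter, depth, scaling, weights, nuclei, vectors and limit; edgeR 4.0.16 and DESeq2 1.42.0 gave size factors only. The steps were tested on simulated data and run in Python 3.11.15 (numpy 2.4.6, pandas 2.3.3, scipy 1.17.1) and R 4.3.3. Doublets were not called: a library is labelled as a single nucleus. Results of some genes that the rule names are not reported here.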

Additional observations from a re-analysis of the deposited data

Results flagged for a closer look

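The 6 genes listed here, all named above, were past the limit in opposite directions in the 2 sets, and the difference between the sets was not tested. Nfib, a transcription factor of cortical maturation, differed by 2.23 in set A and −1.87 in set B. Of the potassium channel genes, Kcnj9 differed by 1.88 and −1.53, and Kcnc1 by 1.55 and −1.56. Kcnc1 had no read in the 16 AiE0387m nuclei of set B. Rpl3 differed by 2.82 and −2.62, with reads in 13 of 18 and 1 of 16 AiE0387m nuclei, and Zfp326 by 3.03 and −1.21. Elavl2, a neuronal RNA-binding protein gene, went the other way, at −1.06 and 1.12. Over all genes compared, 110 of the 475 higher genes of set A were lower in set B, 23.2% against the 24% of all genes.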

How the results depend on the processing

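Counts of genes past the limit depended on the settings. Against 475 higher and 255 lower genes, a pseudocount of 10 left 209 and 72, a filter at 40% of nuclei 187 and 97, and a limit of 2 left 99 and 20. No filter gave 766 higher genes, and summed reads gave 220, 228 and 207 higher genes by total, TMM and DESeq2 size factors, with 267, 262 and 268 lower. Higher genes were 65.1% of those called, 74.4% with a pseudocount of 10, 83.2% with a limit of 2 and 45.2%, 46.5% and 43.6% with the 3 summed settings. Centring on the median of all genes, chosen after seeing the data, gave 365 and 331, of which 52.4% were higher. Setting AiE0387m against AiE0391h and AiE0401h alone, also chosen later, gave 849 and 722. Leaving out 1 other vector at a time gave 475 to 544 higher and 251 to 304 lower genes.

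Higher genes with a difference above 0 in set B, 32% against 34.5% of all genes, were 53.6% (53.3% of all), 55.3% (54.7%) and 54.1% (54.7%) with summed reads by total, TMM and DESeq2 size factors. They were 19.7% (18.3%) with vectors of 5 or more nuclei, 39.4% (41.9%) without nuclei over 1% mitochondrial reads, which leaves AiE0390m under 10 nuclei and gives the same values as leaving out that vector, 37.8% (35.5%) in nuclei with Foxp2 and Tle4 under 10 CPM (vectors with 5 or more such nuclei), 37.4% (34.5%) with a limit of 2, 47.9% (50%) when centred and 39.1% (41.7%) against AiE0391h and AiE0401h. Lower genes with a difference below 0 in set B, 63.9% against 65.5%, were 39.3% (46.7%), 37% (45.3%) and 37.3% (45.3%) with summed reads. In the order of the other settings they were 85.1% (81.7%), 54.1% (58.1%), 70.8% (64.5%), 55% (65.5%), 50.5% (50%) and 57.5% (58.2%). Leaving out 1 vector gave 28.9% to 39.4% for higher and 54.1% to 69.3% for lower genes. The cause of these moves was not tested. With no gene filter the share was 32.5% against 28.4% for higher and 62.9% against 51.5% for lower genes, over 17847 genes.

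Over the 29 alternatives Miat differed by 0.73 to 3.12 in set A and 0.35 to 1.96 in set B. It fell short of the call in 3 of them. The named genes together had 1961 values on the same side of the limit, 271 short of it and 1 reversed, Enpp2 at −0.065 in nuclei with Foxp2 and Tle4 under 10 CPM. List medians moved by more than the SD over vectors in 64 of 464 values. No paired analysis was possible because the numbers in the labels name nuclei and no test was fitted. With 18 and 16 AiE0387m nuclei, a share of 0 allows up to 16.7% and 18.8%.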

Other observations

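The profile of AiE0387m was set against the vectors of the other set as a description, over the same 4794 genes and with no test. Mean levels of AiE0387m in set A had a Pearson r of 0.782 with those of AiE0387m in set B, and of 0.776, 0.764 and 0.728 with AiE0401h, AiE0391h and AiE0390m there. Turned round, AiE0387m in set B had a higher r with AiE0445h_3xC2 (0.81), AiE0779m (0.806), AiE0140h (0.795) and AiE0447h (0.787) of set A than with AiE0387m of set A. The lowest r, 0.69, was with hSyn1. The vectors differ in their number of nuclei, and its part in r was not tested.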
